A study of Homo sapiens with 4 samples.

Results

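The abundant long noncoding RNAs of 2 human breast cancer cell lines are described here by level, by line and by their ratios after a change in TMEM126A. They are the rows that the deposited tables class as lncRNA and that have at least 500 normalized counts in the control library of MDA-MB-231 or of Ca1a. The rule found 84 members among 14854 lncRNA rows and 39261 genes in all. The MDA-MB-231 control held 57 of them at that level and the Ca1a control 65, with 38 abundant in both, 19 in MDA-MB-231 alone and 27 in Ca1a alone. Just inside the threshold lay LINC00704 (508.1), NUTM2B-AS1 (508) and UBA6-AS1 (500), and just outside it MIRLET7BHG (496), LINC00667 (492.0) and LINC00493 (490). The members were chosen by their normalized counts in the control libraries, which are also the denominators of both ratios, so levels, line differences and ratios are given as descriptions without a test.

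The 4 libraries were MDA-MB-231 with a TMEM126A knockdown construct, MDA-MB-231 with a control vector (sh-NC in the design text), MCF10-Ca1a (Ca1a) with TMEM126A overexpression, and Ca1a with a control vector (pCDH). MDA-MB-231 is a triple-negative line of mesenchymal character and Ca1a a tumour-forming line derived from MCF10A mammary epithelium. All constructs were delivered by lentivirus, and the lines grew in different media, Ca1a with horse serum, insulin, EGF, cholera toxin and hydrocortisone and MDA-MB-231 with fetal bovine serum. Each group held 1 library, and the labels do not say whether a library came from 1 clone or a pool, so no difference has a replicate check. Intervals are at 95% and speak of counting error alone.

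Long noncoding RNAs are transcripts that are not known to act through a long protein. Many are spliced and polyadenylated like messenger RNAs, and they differ widely in where they act: MALAT1 and NEAT1 stay in the nucleus, in speckles and paraspeckles, whereas others are processed for the small RNAs in their introns. Hosts of small nucleolar RNAs (snoRNAs, which guide modification of ribosomal and spliceosomal RNA) release the guides from their introns, and the spliced exons that remain are often removed by nonsense-mediated decay. Abundant lncRNAs are read in breast tumours and other tumours as markers of cell identity, and many carry names from the tumour in which they were found.

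Depth was 20673373 to 21405193 reads per library. TMEM126A, which encodes a mitochondrial inner membrane protein, followed the labels, with 22.9 normalized counts with knockdown and 559 with its control vector, and 9381 with overexpression and 265 with its control vector. The epithelial adhesion gene CDH1 stood at 0.332 and 0.203 FPKM in the knockdown and control libraries of MDA-MB-231, and at 73.4 and 73.6 FPKM in the overexpression and control libraries of Ca1a. The mesenchymal filament gene VIM stood at 708, 721, 74.8 and 90.5 FPKM in the same order. Other markers were less divided between the lines. The epithelial keratins KRT8 and KRT18 stood at 112 and 110 FPKM in the MDA-MB-231 control, and at 393 and 470 in the Ca1a control. The mesenchymal markers SPARC and CDH2 were low in both controls, at 0.563 and 0.185 FPKM in MDA-MB-231 and 0.278 and 0.0442 in Ca1a. Of 13 markers of immune, endothelial, fibroblast and adipocyte cells, 12 were under 2 FPKM in all libraries, and the exception was the lysosomal gene CD68. In such bulk RNA, fewer cells with a transcript and less of it per cell cannot be told apart.

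The members carried more than 50% of all lncRNA reads although they were few. They took 55.6% of lncRNA reads with knockdown (Wilson interval 55.4% to 55.8%), 56.1% with its control vector, 72.3% with overexpression and 72.8% with its control vector. Of all reads they took 0.545%, 0.585%, 0.826% and 0.843% in the same order. Their median level was 6.69 FPKM with knockdown and 7.26 FPKM with its control vector, and 12.4 and 12.1 FPKM in the overexpression and control libraries of Ca1a. FPKM scales reads to transcript length and depth, but the lengths and the denominator behind these values are not stated in the sources, so orders of genes by FPKM rest on them. LOC105374003, for instance, was 2.98-fold higher in the Ca1a control than in the MDA-MB-231 control by FPKM and 1.57-fold by reads scaled to depth. Of the 84 members, 1 (XIST) is counted throughout without a printed level.

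By FPKM the leading member of MDA-MB-231 was NEAT1, the architectural RNA of paraspeckles, at 203 FPKM with knockdown and 251 with the control vector. In Ca1a NEAT1 stood at 104 FPKM with overexpression and 103 with the control vector. The leading member of Ca1a was the snoRNA host GAS5, whose spliced RNA is known as a decoy of the glucocorticoid receptor, at 380 and 449 FPKM in the overexpression and control libraries. GAS5 stood at 90.7 and 98.7 FPKM in the knockdown and control libraries of MDA-MB-231. LINC00657 (NORAD), a cytoplasmic RNA that binds PUMILIO proteins, lay close in all 4 libraries, at 112, 107, 102 and 101 FPKM in the knockdown, MDA-MB-231 control, overexpression and Ca1a control libraries. DANCR, another snoRNA host, was as even, at 51.7, 51.5, 56.3 and 51.4 FPKM in that order. MALAT1, the RNA of nuclear speckles, stood at 28.5, 32.0, 40.2 and 37.6 FPKM.

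**Figure D1:**
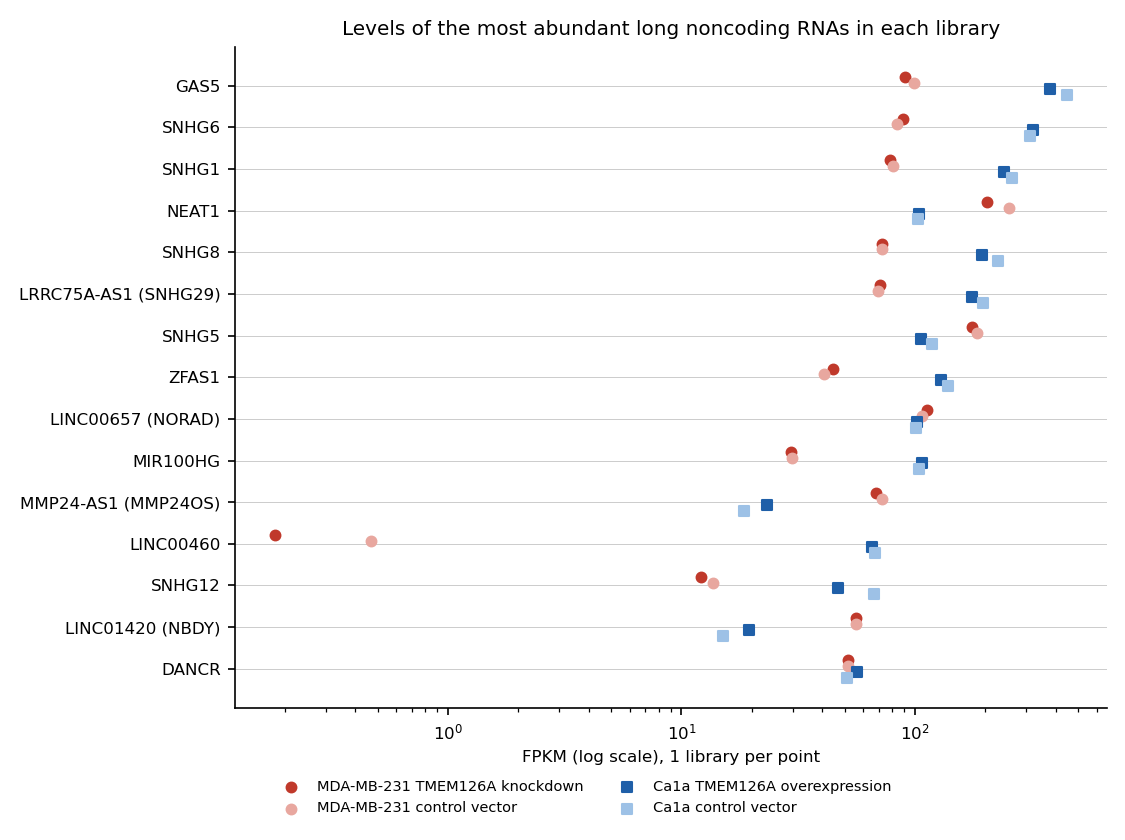
Level in FPKM (log axis) of the 15 members that are among the 12 highest by FPKM in at least 1 of the control libraries, with 1 point per library. The Ca1a libraries (squares) lie right of the MDA-MB-231 libraries (circles) for GAS5, SNHG6, SNHG1, SNHG8, LRRC75A-AS1 and ZFAS1, and left of them for NEAT1, SNHG5, MMP24-AS1 and LINC01420.

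Small RNA genes were frequent inside the members. By RefSeq (GRCh38.p14), which gives a span for 76 of the 84, 16 members (21.1%) hold a snoRNA gene inside their span, against 0.984% of 10666 other lncRNA rows with a span. A microRNA gene lies inside 9 members (11.8%), against 1.53% of those other rows. GAS5 holds 11 snoRNA genes, SNHG1 9, SNHG17 5 and SNHG12 4. MIR100HG holds 4 microRNA genes, among them those of miR-100, let-7a and miR-125b, which act as repressors of messenger RNAs through their seed. Spans differ in length, which these shares do not take into account. RefSeq gives a span for only 72.2% of the other lncRNA rows. Most of the other rows also had few reads. Of 14770, 893 had enough counts to be measured in the knockdown comparison and 644 in the overexpression comparison. Of these measured rows, 19 and 18 hold a snoRNA gene inside. The shares thus set abundant members beside mostly unmeasured rows, and no enrichment is read from them. The match was by position without strand, so a small RNA gene on the opposite strand also counts as inside.

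RefSeq now classes 7 members as protein-coding: TUG1, MMP24-AS1 (MMP24OS), CEBPZOS, LINC00514 (GREP1), LINC00998 (SMIM30), LINC01420 (NBDY) and LINC00094 (BRD3OS). For several of these a short protein is known, such as the decapping-linked microprotein of NBDY. Of the members not so classed, 15 carry a new symbol, for instance LRRC75A-AS1 (SNHG29) and LINC00704 (MANCR). In GENCODE release 29 on GRCh38, 66 members were matched, 64 by Entrez gene ID and 2 by symbol. That is under 80% of the list, so a check of genomic properties over the whole list is void. Positions, nearest coding genes and exon overlap are given for matched members only, as descriptions. The sources used here do not give the strand setting of the counting, so reads of a member and of an antisense gene that overlaps it cannot be told apart.

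The control libraries were compared to describe which members belong to which line. At a 4-fold rule on FPKM with a level of at least 1 FPKM, 8 members were higher in MDA-MB-231 and 21 in Ca1a, while 55 lay within 4-fold and 29 within 2-fold. Among all 12101 genes at that level the same rule called 13.1% higher in MDA-MB-231 and 6.66% higher in Ca1a, among 653 lncRNA rows 26.8% and 16.4%, and among 8639 genes with at least 500 in either control 8.98% and 5.71%. The members' shares are fixed in part by the rule that chose them, and nothing is read from them. Of the 29 past 4-fold, 26 were past it on the same side between the knockdown and overexpression libraries.

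The members of MDA-MB-231 were led by FLJ22447 (LINC03033), at 18.4 FPKM in MDA-MB-231 and 0.0304 FPKM (1 read) in Ca1a. LOC100507420 (LINC01605) had 562 normalized counts in MDA-MB-231 and is listed at 0 in Ca1a, which is at least 192-fold higher against a floor of 3 reads. HAGLR, the antisense transcript of the HOXD cluster, had 527 in MDA-MB-231 and is also listed at 0 in Ca1a, at least 180-fold. PAX8-AS1, antisense to the thyroid and kidney factor gene PAX8, stood at 6.93 FPKM in MDA-MB-231 and 0.0333 FPKM (4 reads) in Ca1a. LINC00704 (MANCR) stood at 9.87 and 0.288 FPKM, LINC00472 at 7.59 and 0.402 FPKM, and UCA1, a transcript first named from bladder carcinoma, at 21.1 and 1.34 FPKM in MDA-MB-231 and Ca1a. In reads scaled to library depth UCA1 was 16.1-fold higher in MDA-MB-231 (13.0 to 20.2).

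Ca1a had a longer list of members that MDA-MB-231 nearly lacked. HOTAIRM1, a transcript known from myeloid cells, is listed at 0 in MDA-MB-231 and had 900 counts in Ca1a, at least 291-fold higher there. LOC101929613, LINC00514 (GREP1) and LINC01239 are likewise listed at 0 in MDA-MB-231 and were at least 379-fold, 271-fold and 248-fold higher in Ca1a. LINC01468 (LNCAROD) had 1 read in MDA-MB-231 and 1403 in Ca1a. LINC00460 stood at 0.467 FPKM in MDA-MB-231 and 67.5 FPKM in Ca1a, and LINC00707 at 0.483 and 30.7 FPKM. CCAT1, named from colon cancer, stood at 0.320 FPKM in MDA-MB-231 and 20.1 FPKM in Ca1a, and PVT1, a neighbour of MYC, at 3.77 and 18.02 FPKM. GAS5, SNHG12 and EPB41L4A-AS1 were the snoRNA hosts past 4-fold by FPKM, but in reads scaled to library depth GAS5 was 2.69-fold higher in Ca1a (2.58 to 2.80), SNHG12 3.26-fold (2.92 to 3.64) and EPB41L4A-AS1 3.69-fold (3.26 to 4.20).

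**Figure D2:**
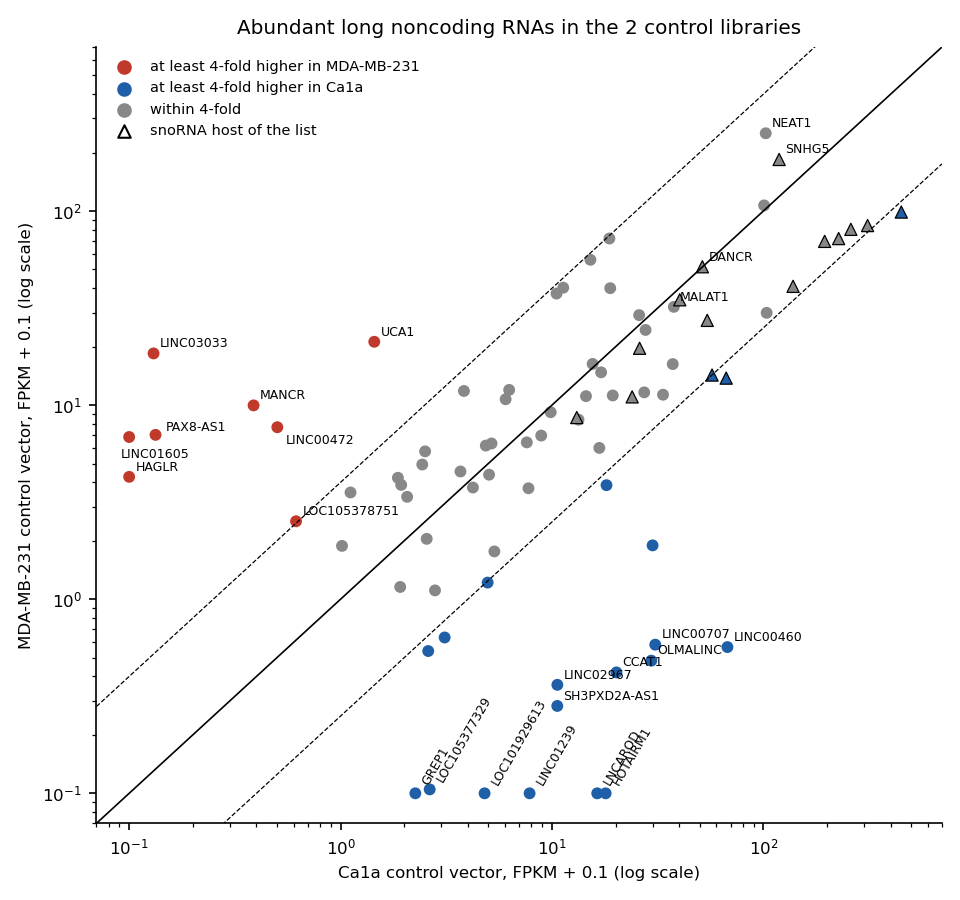
FPKM + 0.1 in the MDA-MB-231 control (vertical, log axis) against the Ca1a control (horizontal, log axis) for 83 members, with the diagonal and the 4-fold limits (dashed). Red points are the 8 members higher in MDA-MB-231 by the rule, blue points 20 of those higher in Ca1a, and triangles the snoRNA hosts, 13 of 15 of which lie below the diagonal.

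Of 20 members past the line rule with a nearest coding gene in the tables, 10 had that gene on the same side, 8 on the other side and 2 without a difference. Sides were read from the sign of the FPKM ratio without a minimum level. The 20 are among the members matched in GENCODE. No share over other gene pairs was computed, and nothing is read from these counts. The 2 without a difference, MBL2 and OR10H1, are listed at 0 FPKM in both controls. PRKCQ, nearest to LINC00707, stood at only 0.0292 FPKM in MDA-MB-231 and 0.00716 FPKM in Ca1a. HOXD1, the nearest coding start to HAGLR, stood at 2.14 FPKM in MDA-MB-231 and is listed at 0 in Ca1a. SCD, the stearoyl-CoA desaturase gene next to OLMALINC, stood at 20.7 FPKM in MDA-MB-231 and 678 FPKM in Ca1a, where OLMALINC stood at 0.382 and 29.4 FPKM. ZNF703, nearest to LOC100507420, stood at 13.0 and 0.233 FPKM, and MYC, nearest to PVT1, at 85.9 and 267 FPKM in MDA-MB-231 and Ca1a. These pairs were chosen after their values were seen. On the other side were PAX8-AS1 with PSD4 (1.099 and 5.53 FPKM in MDA-MB-231 and Ca1a), LINC00704 with AKR1E2, SNHG12 with RAB42, EPB41L4A-AS1 with NREP and HCG11 with HMGN4, among others.

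The snoRNA hosts were the list with the most members. The list of hosts holds 34 names, of which 15 are members, and 13 of these had the higher FPKM in Ca1a, 9 of them by at least 2-fold. Of all 84 members, 52 had the higher FPKM in Ca1a and 32 in MDA-MB-231. No share over all genes was computed at these limits, so the host counts are descriptions. The exceptions were SNHG5, at 184 FPKM in MDA-MB-231 and 119 in Ca1a, and DANCR, which was even. Their median log2 FPKM ratio of MDA-MB-231 over Ca1a was -1.48, and that of the other 69 members -0.21. Summed over the 15 hosts the level was 796 FPKM with knockdown and 810 with its control vector, and 1842 FPKM with overexpression and 2030 with its control vector.

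In MDA-MB-231 the knockdown comparison asked which members differed when TMEM126A was lowered. NEAT1 was 1.23-fold lower with knockdown (1.202 to 1.252), MALAT1 slightly lower, and HCG11 and HNRNPU-AS1 were the members furthest down. Members higher with knockdown were fewer and led by DHRS4-AS1, CASC8 and LOC642852 (LINC00205). Of 73 members averaging 20 or more normalized counts, 9 (12.3%) were higher beyond counting error, 19 (26.0%) lower and 45 within it. Among all 13292 genes so measured, 16.8% were higher and 11.3% lower, and among 7877 genes averaging 500 or more, 21.8% and 14.6%. Of 966 lncRNA rows, 4.87% were higher and 9.21% lower. The median log2 ratio was -0.04 over the members and 0.01 over all genes. At a 1.5-fold rule 0 members were higher and 1 was lower, HCG11, where 1.42% and 0.745% of all genes were called. With FPKM, or with a pseudocount of 5, 0 members were called lower, although the FPKM ratio of HCG11 was 0.659. At a ratio of at least 5 to 4, 3 members were higher and 6 lower, beside 3.97% and 2.29% of all genes.

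NEAT1 had 16835 normalized counts with knockdown (95% Poisson interval 16582 to 17090) and 20656 with the control vector (20375 to 20941), a ratio of 0.815 (0.799 to 0.832). Ca1a gave 8418 counts of NEAT1 with overexpression and 8386 with the control vector, a ratio of 1.004 (0.974 to 1.03). The level was thus lower with knockdown and even between the Ca1a libraries. The gene spans 65422774 to 65445540 of chromosome 11, plus strand, as 1 exon of 22767 bp. MALAT1, which follows it on the same chromosome and strand (65497688 to 65506516), had 6831 counts with knockdown and 7651 with the control vector, a ratio of 0.893 (0.864 to 0.922). Of 14 measured paraspeckle protein genes, 2 were higher with knockdown, 0 lower and 12 within counting error, with a median log2 ratio of -0.004. Among all genes measured, 16.8% were higher and 11.3% lower. SFPQ had a ratio of 1.004 (0.970 to 1.04) and NONO 0.992 (0.964 to 1.02).

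HCG11, an RNA gene of the extended histocompatibility region on chromosome 6 (26521709 to 26527404, plus strand), had 100.4 counts with knockdown and 152 with the control vector, a ratio of 0.661 (0.508 to 0.856). HNRNPU-AS1, by its symbol antisense to the gene of a nuclear RNA-binding protein, had 597 and 864 counts, a ratio of 0.691 (0.622 to 0.768). The same transcripts were even in Ca1a, HCG11 at 659 and 652 counts and HNRNPU-AS1 at 736 and 693 in the overexpression and control libraries. LOC729737 had a ratio of 0.748 (0.675 to 0.828) and UBA6-AS1, which starts 101 bp from the ubiquitin-activating enzyme gene UBA6 on the other strand, 0.774 (0.647 to 0.925). UBA6 itself had a ratio of 0.913 (0.868 to 0.960). LINC00472 had 1522 counts with knockdown and 1893 with the control vector (0.804, 0.751 to 0.861), and PSMA3-AS1 had 729 and 896 (0.815, 0.738 to 0.899). UCA1 had 1157 counts with knockdown and 1368 with the control vector (0.845, 0.781 to 0.915). Other members lower beyond counting error had ratios from 0.792 in LOC105376973 to 0.943 in FGD5-AS1.

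DHRS4-AS1 had 206 counts with knockdown and 155 with the control vector, a ratio of 1.33 (1.07 to 1.65). It lies antisense to the dehydrogenase genes DHRS4 and DHRS4L2 and shares 9.82% of its exonic bases with them. DHRS4L2 had a ratio of 0.686 (0.553 to 0.850) and DHRS4 one of 0.819 (0.619 to 1.08), and without the strand setting shared reads of these genes cannot be assigned. CASC8 had 309 and 246 counts in the knockdown and control libraries (1.26, 1.06 to 1.49), and LOC642852 had 1305 and 1042 (1.252, 1.15 to 1.36). LOC105374003 (LINC00973) had a ratio of 1.15 (1.06 to 1.26), FLJ23867 1.17 (1.03 to 1.32) and LOC100506548 1.14 (1.02 to 1.26). Among abundant members on this side, ZFAS1 had a ratio of 1.09 (1.02 to 1.16), and TUG1 and LINC00657 both 1.05, with intervals of 1.01 to 1.09 and 1.03 to 1.08. CCAT1 had a ratio of 1.501 (0.883 to 2.59) on 25.2 counts with the control vector, which was within counting error.

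**Figure D3:**
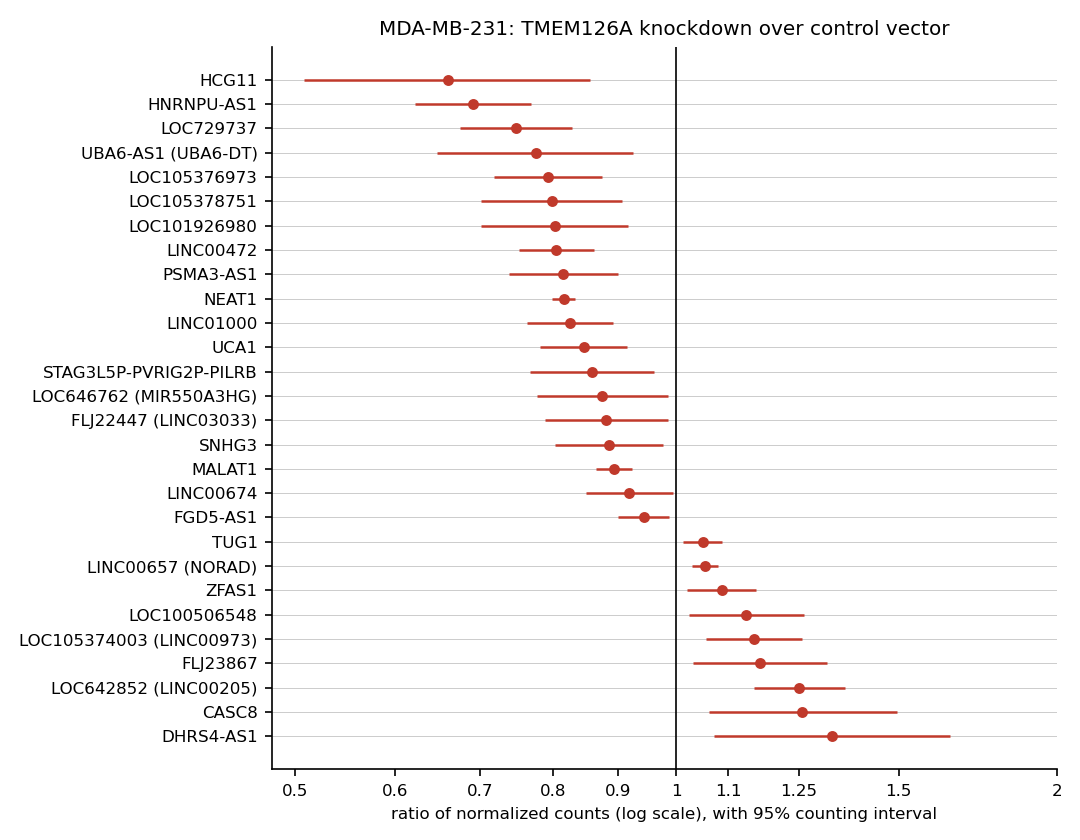
Ratio of normalized counts, knockdown over control in MDA-MB-231 (log axis), with 95% counting intervals, for the 28 members whose interval leaves out 1. The 19 members at the top lie below 1, from HCG11 at 0.661 to FGD5-AS1 at 0.943, and the 9 at the bottom above it, up to DHRS4-AS1 at 1.33.

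In Ca1a the overexpression comparison asked which members differed when TMEM126A was raised. The snoRNA hosts were mostly lower with overexpression: of 15, 10 (66.7%) were lower beyond counting error, 0 higher and 5 within it, with a median log2 ratio of -0.16. Over the 23 measured genes of the whole host list 1 was higher, 11 lower and 11 within. THAP9-AS1, a member that holds snoRNA genes by RefSeq but is not on the list, was higher by counts (1.07, 1.02 to 1.12) and at 0.990 by FPKM, which makes 1 higher and 10 lower of 16 members with a snoRNA gene. LINC00707 and HOTAIRM1, members that Ca1a has and MDA-MB-231 nearly lacks, were lower too, while UCA1, MIR4435-1HG and LOC105377329 were higher. Of all 80 members measured, 17 (21.3%) were higher, 15 (18.8%) lower and 48 within counting error, and the median log2 ratio was 0.01. Among all 12111 genes measured, 18.1% were higher and 16.2% lower, with a median of 0.01, and among 7099 genes averaging 500 or more, 23.6% and 20.8%. Of 724 lncRNA rows, 8.43% were higher and 7.87% lower. Of the 65 members not on the host list, 17 were higher and 5 lower, with a median of 0.02. At the 1.5-fold rule 1 member, UCA1, was higher and 0 were lower, where 1.27% and 1.32% of all genes were called. With FPKM 0 members were called higher and 2 lower, and UCA1 had a ratio of 1.44. At a ratio of at least 5 to 4, 3 members were higher and 4 lower, beside 4.2% and 4.2% of all genes.

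EPB41L4A-AS1, the host of SNORA13, had 862 counts with overexpression (805 to 922) and 1184 with the control vector (1118 to 1253), a ratio of 0.728 (0.666 to 0.795). SNHG12 had 1114 and 1403 counts (0.794, 0.733 to 0.860), SNHG8 had 2193 and 2590 (0.847, 0.7995 to 0.897) and SNHG7 had 2488 and 2896 (0.859, 0.814 to 0.907). LRRC75A-AS1, the member with the most reads, had 19987 counts with overexpression and 23261 with the control vector, a ratio of 0.859 (0.843 to 0.876). GAS5 had 8128 and 9338 counts, a ratio of 0.870 (0.845 to 0.897). SNHG17 (0.875), SNHG5 (0.898), SNHG16 (0.899) and ZFAS1 (0.928) were lower by less. The remaining 5 hosts were even: SNHG15 had a ratio of 0.974, SNHG1 0.982, SNHG6 1.03, SNHG3 1.04 and DANCR 1.06. Overlap of exons with other genes in GENCODE was counted without snoRNA, scaRNA and microRNA genes. Of the 5 hosts that share no exonic bases by this count, 3 (SNHG8, SNHG5 and SNHG17) were lower, with a median log2 ratio of -0.16. EPB41L4A-AS1, in contrast, shares 49.6% of its exonic bases with EPB41L4A on the opposite strand. On FPKM, SNHG7 had a ratio of 0.958 and SNHG1 one of 0.930.

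In MDA-MB-231 the same hosts stayed close to 1. Of the 15, ZFAS1 was higher with knockdown (within counting error at 1.06 when scaled by total reads), SNHG3 was lower with 780 and 881 counts (0.885, 0.803 to 0.976), and 13 lay within counting error, with a median log2 ratio of -0.01. The 10 hosts that were lower with overexpression had knockdown ratios from 0.975 (EPB41L4A-AS1) to 1.09 (ZFAS1). Coding genes with a snoRNA gene inside their RefSeq span were spread over both sides in Ca1a, with 84 of 390 (21.5%) higher and 75 (19.2%) lower with overexpression and a median log2 ratio of 0.004. The other measured lncRNA rows with a snoRNA gene inside gave 2 of 18 higher and 1 lower. Of 16 nonsense-mediated decay factor genes, 5 were higher with overexpression, 1 lower and 10 within counting error, and with knockdown 1 was higher, 5 lower and 10 within. Among all genes measured, 18.1% were higher and 16.2% lower with overexpression, and 16.8% and 11.3% with knockdown. On 16 genes, counts of this size are few, and nothing is read from them. UPF3B had ratios of 1.26 (1.09 to 1.45) in the overexpression comparison and 0.885 (0.791 to 0.990) in the knockdown comparison, and SMG1 0.902 (0.874 to 0.931) and 0.923 (0.884 to 0.963). Their part in the hosts' levels was not tested.

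**Figure D4:**
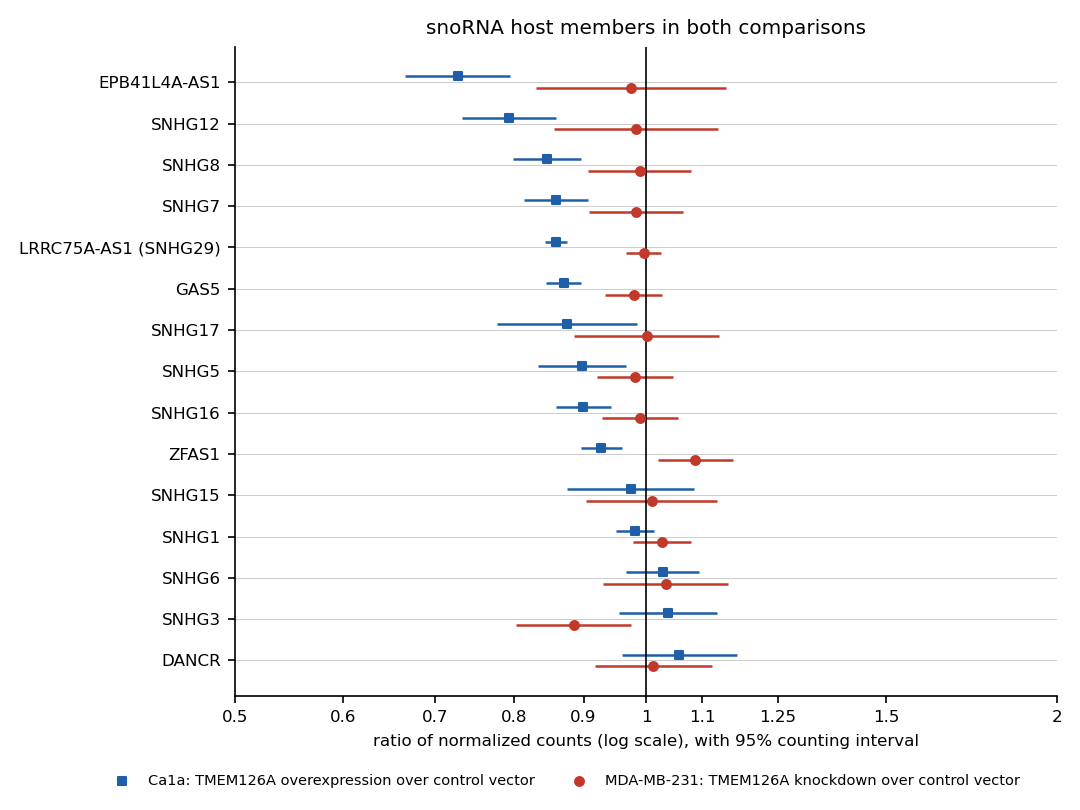
Ratio of normalized counts (log axis) with 95% counting intervals for the 15 snoRNA hosts, overexpression over control in Ca1a (blue squares) and knockdown over control in MDA-MB-231 (red circles). The blue intervals of the 10 hosts from EPB41L4A-AS1 to ZFAS1 lie below 1, and most red intervals cross 1.

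Start regions of hosts are shown because 10 hosts were lower together in Ca1a and because many hosts are known to start transcription at a pyrimidine run, as genes of the translation machinery do. RefSeq (GRCh38.p14) gives a start for 13 of the 15 hosts. A run of at least 5 C or T that begins with C within 10 bases of the annotated start, on the gene's strand, was found in 9 of the 13 (69.2%), in 14 of 46 other members with a start (30.4%) and in 33.3% of all 27305 promoters of the table. The 40 bases before and 40 after the start are printed 5′ to 3′ with that run in capitals.
SNHG12, chr1:28581834-28581913, minus strand: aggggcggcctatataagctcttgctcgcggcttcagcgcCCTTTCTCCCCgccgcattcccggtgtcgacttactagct
SNHG8, chr4:118278722-118278801, plus strand: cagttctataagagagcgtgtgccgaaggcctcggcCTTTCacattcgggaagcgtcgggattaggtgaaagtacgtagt
SNHG5, chr6:85678694-85678773, minus strand: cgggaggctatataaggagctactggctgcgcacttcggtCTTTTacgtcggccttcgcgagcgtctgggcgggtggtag
ZFAS1, chr20:49278602-49278681, plus strand: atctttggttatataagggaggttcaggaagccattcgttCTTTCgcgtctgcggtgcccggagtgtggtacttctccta
DANCR, chr4:52712354-52712433, plus strand: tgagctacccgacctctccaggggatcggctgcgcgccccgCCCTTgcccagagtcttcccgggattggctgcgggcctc
EPB41L4A-AS1, chr5:112160486-112160565, plus strand: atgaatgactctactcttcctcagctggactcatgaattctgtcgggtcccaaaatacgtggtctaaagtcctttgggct
The first 4 of these were lower with overexpression and hold the run. DANCR holds it and was even, and EPB41L4A-AS1, the host furthest down, holds none at its annotated start. Among the hosts not printed, LRRC75A-AS1, SNHG7, SNHG16 and SNHG17 hold the run and were lower. GAS5 holds none and was lower too, and SNHG1 and SNHG3 hold none and were even. These readings are at the RefSeq starts alone, and other starts were not searched. GENCODE starts differ for some hosts. Those of GAS5 (173868882) and ZFAS1 (49278178) lie outside their windows, which for GAS5 is chr1:173869006-173869085. That of SNHG3 (28505980) lies near the end of its window, chr1:28505903-28505982. A missing run is therefore not shown for other starts of these hosts. A link between the run and the ratios was not tested. A match is a description of letters in this window.

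Among members that host no snoRNA, LINC00707 had 1952 counts with overexpression and 2845 with the control vector, a ratio of 0.686 (0.647 to 0.727). Its position is chromosome 10, 6779549 to 6879450, plus strand. HOTAIRM1 had 650 and 900 counts, a ratio of 0.722 (0.652 to 0.7998). The other members lower with overexpression were LOC646762 (MIR550A3HG) at a ratio of 0.832 (0.727 to 0.952), LOC105374003 at 0.882 (0.820 to 0.9495) and HEIH at 0.886 (0.804 to 0.976).

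UCA1 (chromosome 19, 15828206 to 15836326, plus strand) had 134 counts with overexpression (112 to 159) and 87 with the control vector (69.7 to 107), a ratio of 1.54 (1.17 to 2.04). It was the only member past 1.5-fold upward, on a level far below that in MDA-MB-231. LOC105377329 had 1246 counts with overexpression and 923 with the control vector (1.35, 1.24 to 1.47), and LINC01468 had 1645 and 1403 (1.17, 1.09 to 1.26). MIR4435-1HG had 322 and 230 counts (1.40, 1.18 to 1.67), but it is nearly identical to LINC00152 (CYTOR), which had 466 and 508 (0.917, 0.807 to 1.04). Reads can be split between these copies, and their sum was 788 and 738 counts, a ratio of 1.07 (0.965 to 1.18). MMP24-AS1 had a ratio of 1.197 (1.09 to 1.32) and OTUD6B-AS1 1.21 (1.05 to 1.40).

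Of 9 measured RNAs on the nuclear architecture and retention list, 4 were higher with overexpression, 1 lower and 4 within counting error. Among all genes averaging 500 or more, 23.6% were higher and 20.8% lower. Abundant RNAs have narrow intervals, so small differences pass counting error more often. MALAT1 had 9854 counts with overexpression and 8851 with the control vector, a ratio of 1.11 (1.08 to 1.15), and TUG1 had 7473 and 6654 (1.12, 1.09 to 1.16). LINC00657 had a ratio of 1.03 (1.004 to 1.05), which was within counting error with FPKM and with median-ratio or TMM scaling. OIP5-AS1, a cytoplasmic RNA that binds the protein HuR, had a ratio of 0.982 (0.897 to 1.07).

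MIR100HG (chromosome 11, 122028327 to 122556721, minus strand) had 10455 counts with overexpression and 9484 with the control vector, a ratio of 1.102 (1.07 to 1.13). In MDA-MB-231 it had 2722 and 2788 counts in the knockdown and control libraries, a ratio of 0.976 (0.926 to 1.03). The mature microRNAs were not measured in these libraries. Their sequences are printed from RefSeq (GRCh38.p14) to show what the transcript carries, with the seed (bases 2 to 8) in capitals, and the 3 seeds differ from each other.
hsa-miR-100-5p: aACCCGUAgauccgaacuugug
hsa-let-7a-5p: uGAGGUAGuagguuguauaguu
hsa-miR-125b-5p: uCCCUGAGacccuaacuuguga
LOC284454 (MIR23AHG), the host of the genes of miR-23a, miR-27a and miR-24, was within counting error in both comparisons, with ratios of 0.905 (0.8002 to 1.02) in the knockdown comparison and 0.891 (0.786 to 1.01) in the overexpression comparison.

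Knockdown and overexpression change TMEM126A in opposite directions, in different lines and with separate controls. Of 69 members measured in both comparisons, 10 were beyond counting error in both, 5 of them in opposite directions and 5 in the same direction. By counts, 5.51% of all 11349 genes measured in both were beyond in opposite directions and 7.11% in the same direction. Of 6308 genes averaging 500 or more in both lines, these shares were 8.04% and 10.4%. With FPKM in place of counts 8 members were on opposite sides, for which no share over all genes was computed. Lower with knockdown and higher with overexpression were UCA1 (0.845 and 1.54), MALAT1 (0.893 and 1.11) and STAG3L5P-PVRIG2P-PILRB (0.858 and 1.105). Higher with knockdown and lower with overexpression were LOC105374003 (1.15 and 0.882) and ZFAS1 (1.09 and 0.928), whose knockdown ratio was within counting error when scaled by total reads. The members on the same side in both were CASC8 (1.26 and 1.16), FLJ23867 (1.17 and 1.12), TUG1 (1.05 and 1.12) and LINC00657 (1.05 and 1.03), all higher, and LOC646762 (0.874 and 0.832), which was lower. HCG11 and HNRNPU-AS1, the members furthest down with knockdown, were within counting error with overexpression, and LINC00707, the member furthest down with overexpression, was within it with knockdown.

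**Figure D5:**
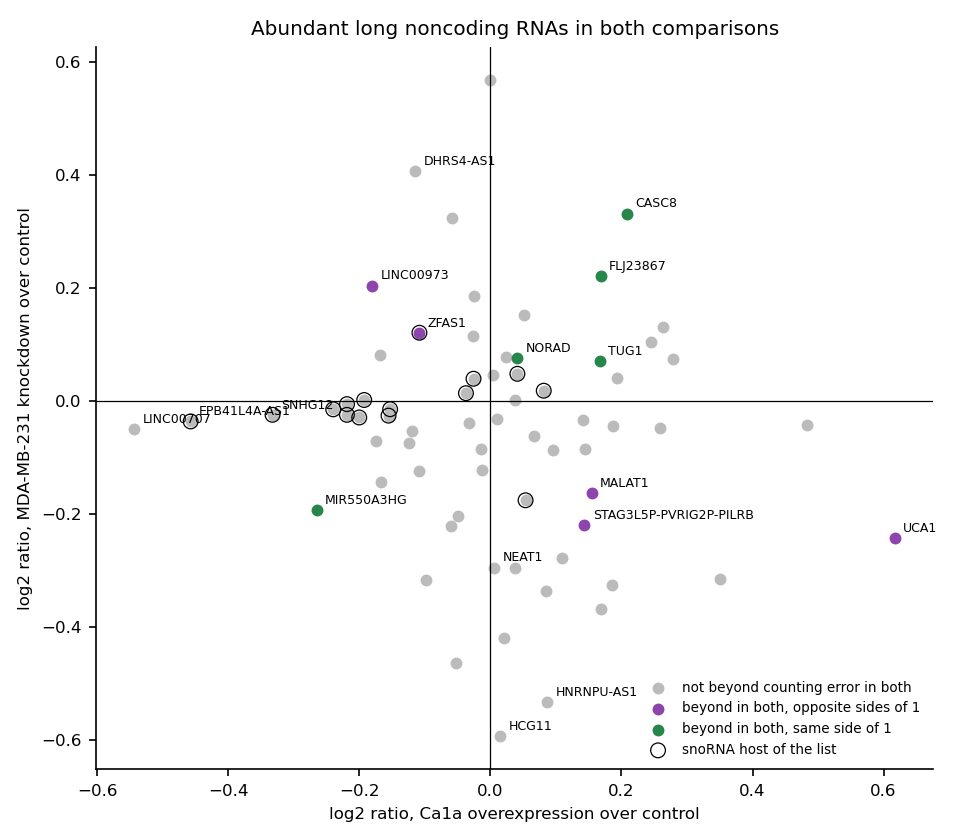
Log2 ratio of knockdown over control in MDA-MB-231 (vertical) against log2 ratio of overexpression over control in Ca1a (horizontal) for 69 members measured in both. Purple points (5) are beyond counting error on opposite sides of 1, green points (5) on the same side, and circled points, the snoRNA hosts, lie mostly left of the vertical line and near the horizontal one.

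Other lists held few members. Among all genes measured, 16.8% were higher and 11.3% lower with knockdown, and 18.1% and 16.2% with overexpression. Of 10 members on the list of cancer-associated transcripts, 8 were measured in MDA-MB-231, with 1 higher and 2 lower with knockdown, and 9 in Ca1a, with 2 higher and 2 lower with overexpression. Of 5 members on the list of nuclear architecture and RNA retention, 2 were higher and 2 lower with knockdown and 3 higher and 0 lower with overexpression. Members of the p53-linked list (NEAT1, PVT1 and LINC00657) gave 1 higher and 1 lower with knockdown and 1 higher with overexpression. Of 4 members on the hypoxia list (LINC00152, NEAT1, GAS5 and UCA1), 0 were higher and 2 lower with knockdown, and 1 was higher and 1 lower with overexpression. MIR100HG and MIR4435-1HG, the 2 members on the microRNA host list, were within counting error with knockdown and higher with overexpression, where MIR4435-1HG summed with LINC00152 was within it. Of all 9 members with a microRNA gene inside, 8 were measured in Ca1a, and 3 were higher, 1 (LOC646762) lower and 4 within. HCG11 was the 1 member on the immune list, and the list of imprinted loci held 0. In the authors' deposited table the adjusted p of DESeq was under 0.05 for 0 members in either comparison, and for 50 and 24 of all genes in the knockdown and overexpression comparisons. The smallest adjusted p in the authors' deposited table was 0.145 for HNRNPU-AS1 in the knockdown comparison and 0.0919 for LINC00707 in the overexpression comparison.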

How the data were processed

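Total RNA of 4 cultures was sequenced, 1 library each. The submitters' processing notes name HISAT2, Cufflinks, HTSeq, DESeq, GRCh38.p5 and hg38; the sources used here give neither tool versions nor the strand setting. The Ca1a columns the authors deposited are read counts per gene. Those of MDA-MB-231 are a deposited signal, read counts over a library size factor per the file headers; all were whole multiples of the smallest value within 1e-06, and the multiples served as reads. FPKM, log2 fold changes and adjusted p-values were copied from the authors' deposited tables.

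Ratios are of normalized counts with exact conditional binomial (Clopper-Pearson) intervals at 95%, and levels carry exact Poisson intervals. Reads lack molecular identifiers and are not independent molecules, so intervals and the floor of 3 reads hold for counting error only. A gene was measured in a comparison at a mean of at least 20, was beyond counting error where its interval left out 1, and was called at 1.5-fold on log2(value + 1). The line rule was 4-fold on log2(FPKM + 0.1) with at least 1 FPKM. With single libraries no test of a condition was possible, and no count model was fitted.

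Named were TMEM126A, cell type markers, the members just inside and outside the threshold, the 12 highest by FPKM in each control, up to 10 per side of each comparison (at least 5 beyond counting error), up to 6 per list, and up to 6 in opposite and 6 in the same direction. Coding neighbours, decay factors and further members were chosen after their values were seen. The result of 1 coding neighbour is not reported here. The members and the 10 lists were chosen with earlier results of these data known. Positions come from GENCODE release 29 on GRCh38, and spans, starts and sequences from RefSeq. The calls were run on simulated Poisson counts with known ratios. These hold counting error alone, so that run cannot speak of differences between single cultures. Alternatives were other thresholds, FPKM, pseudocounts, filters, fold rules, scalings by total reads, median ratio or TMM, and members without exon overlap. Values came from scipy 1.17.1, pandas 2.3.3 and numpy 2.4.6 under python 3.11.15, figures from matplotlib 3.10.9, and TMM factors from edgeR 4.0.16 in R 4.3.3.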

Additional observations from a re-analysis of the deposited data

How the results depend on the processing

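No paired analysis was possible because each group held 1 library, and for the same reason no replicate could be left out. Of the counts and median log2 ratios recomputed, 239 stayed the same and 36 moved. A count was the same within 1.5 times its main value. A median was the same where it shifted by less than the median half-width of a member's interval. With a member threshold of 300 the list held 152 genes and with 1000 it held 39. With FPKM in place of counts, 0 members were called lower with knockdown, 0 higher and 2 lower with overexpression, 2 hosts were lower with knockdown, and 8 members were beyond counting error in opposite directions. With a pseudocount of 5, 0 were called lower with knockdown. With a mean of at least 5 or no filter, 1 was called higher with knockdown. At a ratio of at least 5 to 4, 3 were higher and 6 lower with knockdown and 3 higher and 4 lower with overexpression, and at 2-fold 0 were lower with knockdown and 0 higher with overexpression. The line rule at 2-fold gave 20 members higher in MDA-MB-231 and 35 in Ca1a. Scaling by total reads left 0 hosts higher with knockdown, as ZFAS1 fell within counting error. At a threshold of 300, 1 member was called higher and 14 were beyond counting error upward with knockdown, and with overexpression 4 were called higher, 24 were lower and 1 host was higher. At a threshold of 1000, 0 members were called lower and 8 were lower beyond counting error with knockdown, and 11 were higher with overexpression. Members chosen on the mean of both libraries gave 2 called higher with overexpression. The 20 members without exon overlap, snoRNA, scaRNA and microRNA genes not counted, gave 4 higher and 2 lower with knockdown, with 0 hosts on either side. With overexpression they gave 4 higher, 4 lower, 0 called higher and 3 hosts lower. The cause of these moves was not tested, apart from the smaller or larger lists that some settings make. THAP9-AS1 alone among members beyond counting error had an FPKM ratio on the other side of 1, and LINC00657 with overexpression was within counting error under FPKM, median-ratio and TMM scaling. The median half-width of a member's interval was 0.15 with knockdown and 0.14 with overexpression on the log2 scale, narrower for the most abundant members.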
